A study of Homo sapiens with 24 samples.

Results

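Chemokine ligand and receptor genes were described in sensory neuron cultures grown from H9 human embryonic stem cells (H9WAO9 in the labels). Members were the genes with a symbol of the CCL, CXCL, CCR, CXCR or ACKR series, together with CX3CL1, CX3CR1 and XCL1. The eotaxin genes CCL26, CCL24 and CCL11 were left out of the rule and are not analysed here. Of 58 matching symbols, 45 had a total of at least 10 counts over the 24 libraries, and these 45 are the members among 29377 entries that reached this total, of 36468 in the table. Where several entries shared a symbol, the first was used, which set aside 11 further entries. By family, the members were 14 CC ligands, 6 ELR CXC ligands (the neutrophil-attracting CXC ligands with a Glu-Leu-Arg motif before the first cysteines), 2 ligands of CXCR3, 7 other CXC, CX3C and XC ligands, 12 conventional receptors and 4 atypical receptors.

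The stem cells had been turned into vagal neural crest spheroids, then into sensory neurons, and matured for some weeks before treatment. The 4 treatments were Vehicle (bovine serum albumin in PBS), TGF-β at 2 ng/ml, IL-4 at 10 ng/ml together with IL-13 at 3 ng/ml (IL-4+IL-13), and IL-6, whose dose and duration the labels do not give. The other treatments lasted 5 days. Each of 6 differentiation batches gave 1 library per treatment, so that each group had 6 libraries and each batch 4. All libraries came from 1 wild-type cell line and from whole cultures, in which neurons were a minority of the cells by the study's own flow cytometry. The batches are separate differentiations, so the p-values measure the spread between differentiations of this line and not between donors.

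Chemokines are small secreted proteins that guide the movement of cells by binding receptors coupled to G proteins. Atypical receptors bind chemokines without classical G protein signalling and take them up, which shapes their gradients. In airways and sensory ganglia, the ligands that bind CXCR2 are known for drawing in neutrophils, CCL2 for drawing in monocytes, and CXCL12 with its receptors CXCR4 and ACKR3 for guiding migrating precursor cells.

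The upstream sequences of the 6 ELR CXC genes are shown because these ligands held much of the chemokine signal and share a short motif. They lie together on chromosome 4, and the sequence of CXCL12, on chromosome 10, is given for comparison. Each run is the 130 bases before the annotated start of transcription, read 5′ to 3′ on the strand of the gene, from RefSeq on GRCh38.p14, the build of the count table. Capitals mark matches to GGANTTTCC, an NF-kB-like motif in which N is any base.
CXCL6, chr4:73836548-73836677, plus strand: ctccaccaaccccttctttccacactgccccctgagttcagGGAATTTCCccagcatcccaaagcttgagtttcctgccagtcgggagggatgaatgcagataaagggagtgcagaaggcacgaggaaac
CXCL5, chr4:73998678-73998807, minus strand: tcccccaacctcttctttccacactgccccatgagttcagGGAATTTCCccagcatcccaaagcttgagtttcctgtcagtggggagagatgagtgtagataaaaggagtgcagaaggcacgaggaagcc
CXCL8, chr4:73740439-73740568, plus strand: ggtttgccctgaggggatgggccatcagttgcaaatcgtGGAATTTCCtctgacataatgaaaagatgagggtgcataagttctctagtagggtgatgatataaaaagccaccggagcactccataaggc
CXCL1, chr4:73869263-73869392, plus strand: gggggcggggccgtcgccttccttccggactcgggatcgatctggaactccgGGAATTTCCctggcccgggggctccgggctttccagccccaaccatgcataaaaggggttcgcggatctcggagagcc
CXCL2, chr4:74099196-74099325, minus strand: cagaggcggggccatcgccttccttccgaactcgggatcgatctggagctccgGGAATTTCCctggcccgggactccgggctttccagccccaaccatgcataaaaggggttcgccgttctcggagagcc
CXCL3, chr4:74038690-74038819, minus strand: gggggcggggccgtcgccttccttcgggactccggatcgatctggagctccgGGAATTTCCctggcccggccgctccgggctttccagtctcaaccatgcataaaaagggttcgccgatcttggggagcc
CXCL12, chr10:44385098-44385227, minus strand: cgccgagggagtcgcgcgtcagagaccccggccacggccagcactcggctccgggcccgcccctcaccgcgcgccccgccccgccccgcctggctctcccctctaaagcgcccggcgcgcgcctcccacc

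The search covered both strands of the 300 bases around each start, for the 31 members with an entry in the promoter table. Matches to GGANTTTCC stood in 8 of these 31 promoters (25.8%), against 1.64% of all 35116 promoters searched. The 8 were the 6 ELR CXC genes shown and the CXCR3 ligands CXCL10 and CXCL11. The promoters of CXCL1, CXCL2 and CXCL3 are near copies of each other, as are those of CXCL6 and CXCL5. The 8 matches are therefore not independent, and the 2 shares are given side by side only. The match began at position -89 in CXCL6, -90 in CXCL5, -91 in CXCL8, -78 in CXCL1 and CXCL3 and -77 in CXCL2, where -1 is the last base before the start. The pattern TTCNNNGAA (STAT-like) was found in 7 members (22.6%), against 7.66% of all promoters. In CXCL6 and CXCL5 it overlapped the NF-kB-like match. The pattern TTCNNNNGAA (STAT6-like) was found in 3 members (9.68%, against 6.44%), and none of the 3 was an ELR CXC gene or CXCL12. The letters CAGAC (SMAD-like) were found in 16 members (51.6%, against 45.3%). TGANTCA (AP-1-like) was found in 6 members (19.4%, against 7.71%), CXCL8 among them. These are matches of letters in a window, not bound sites.

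Library totals were between 33342682 and 39817784 counts, with a median of 35775126, and the members made up 0.0308% to 0.109% of a library. Expression levels are given as normalized counts, meaning counts divided by DESeq2's size factor of the library. CISH, a feedback gene of cytokine signalling, rose under IL-4+IL-13 against vehicle (log2 fold change 4.40, SE 0.38, edgeR adjusted p = 7.07e-06). For SOCS3, a check gene of the IL-6 treatment, IL-6 against vehicle gave a log2 fold change of 0.09 (edgeR adjusted p = 0.882), which did not pass the test. The vehicle libraries of batches 2 and 4 stood apart from their batches. After treatment means were removed, the vehicle library of batch 2 had a mean correlation of 0.00808 with the other libraries of its batch, over 20962 genes, and of 0.532 with those of batch 4. The vehicle library of batch 4 had 0.163 with its own batch and 0.475 with batch 2. Each thus resembled the batch of the other more than its own, and whether the pair was exchanged was not tested. The labels were kept as given, so all counts over batches that involve vehicle use this pairing. For CXCL6, CXCL1, CXCL8 and CXCL16, values without the vehicle library of batch 2 are also given. Unless stated, the other comparisons with vehicle include the vehicle libraries of batches 2 and 4 as labelled. Neuronal marker genes were present in all libraries (TUBB3 between 8145 and 45180 normalized counts). Of the leukocyte markers, AIF1 and CD3E were at 0 counts in every library, while PTPRC was between 147 and 1284 and CD68 between 151 and 1441 normalized counts.

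Most of the chemokine signal came from few genes. The 6 members with the highest counts (CXCL14, CXCL1, CXCL6, CCL2, CXCR4 and CXCL8) held 88.8% of all member counts. On a scale of mean normalized counts per kilobase of exon, CXCL1 stood highest (3818), before CXCL14 (2755), CXCL6 (2435) and CCL2 (2059). Receptors were lower on the same scale: CXCR4, the receptor of CXCL12, reached 566 and the atypical receptor ACKR3 reached 155. Of the ligands named above, CXCL12 had only 44.2 normalized counts per kilobase. CXCR2, the neutrophil receptor of the ELR CXC ligands, had 10 counts in all 24 libraries together, and CCR2, the receptor of CCL2, had 7 and so was one of the 13 symbols below the limit.

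Treatments were compared within batch, in 1 edgeR fit of all 24 libraries with batch and treatment as terms. In what follows a gene changed where its adjusted p was under 0.05, and was called where its log2 fold change was also beyond 1 in either direction. The comparisons with vehicle share the vehicle libraries, and all 6 comparisons reuse the same 4 groups, so their values are given side by side only. Against vehicle, 0 of 45 members were called under TGF-β (0.143% of all genes), 0 with IL-4+IL-13 (0.371%) and 0 with IL-6 (0.0%). In edgeR, 3, 6 and 1 members had an unadjusted p under 0.05. DESeq2 called 0, 1 and 0 of the 45 members (0.797%, 0.994% and 0.408% of all genes). For IL-6, edgeR called 0 of all genes, with 1400 at an unadjusted p under 0.05 and 120 called by DESeq2. Between treatments, edgeR called 0 of 45 members for TGF-β against IL-4+IL-13 (1.18% of all genes), 0 for TGF-β against IL-6 (0.0306%) and 0 for IL-4+IL-13 against IL-6 (0.279%). There, 9, 2 and 6 members had an unadjusted p under 0.05. By DESeq2, 1, 0 and 0 were called (2.13%, 0.844% and 0.868% of all genes). In the test over the 4 treatments together, 0 of 45 members changed by edgeR (1.81% of all genes), 6 had an unadjusted p under 0.05, and DESeq2 gave 2, CCL2 and CXCL12 (4.35% of all genes). The 1 member that changed in a pairwise comparison was CCL2, lower under TGF-β than in the IL-4+IL-13 libraries (2.98% of all genes changed there). No member changed in the others, in which 0.347% of all genes changed for TGF-β, 0.633% for the IL-4+IL-13 group and 0.0% for IL-6, each against vehicle, 0.0783% for TGF-β against IL-6 and 0.456% for IL-4+IL-13 against IL-6.

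**Figure D1:**
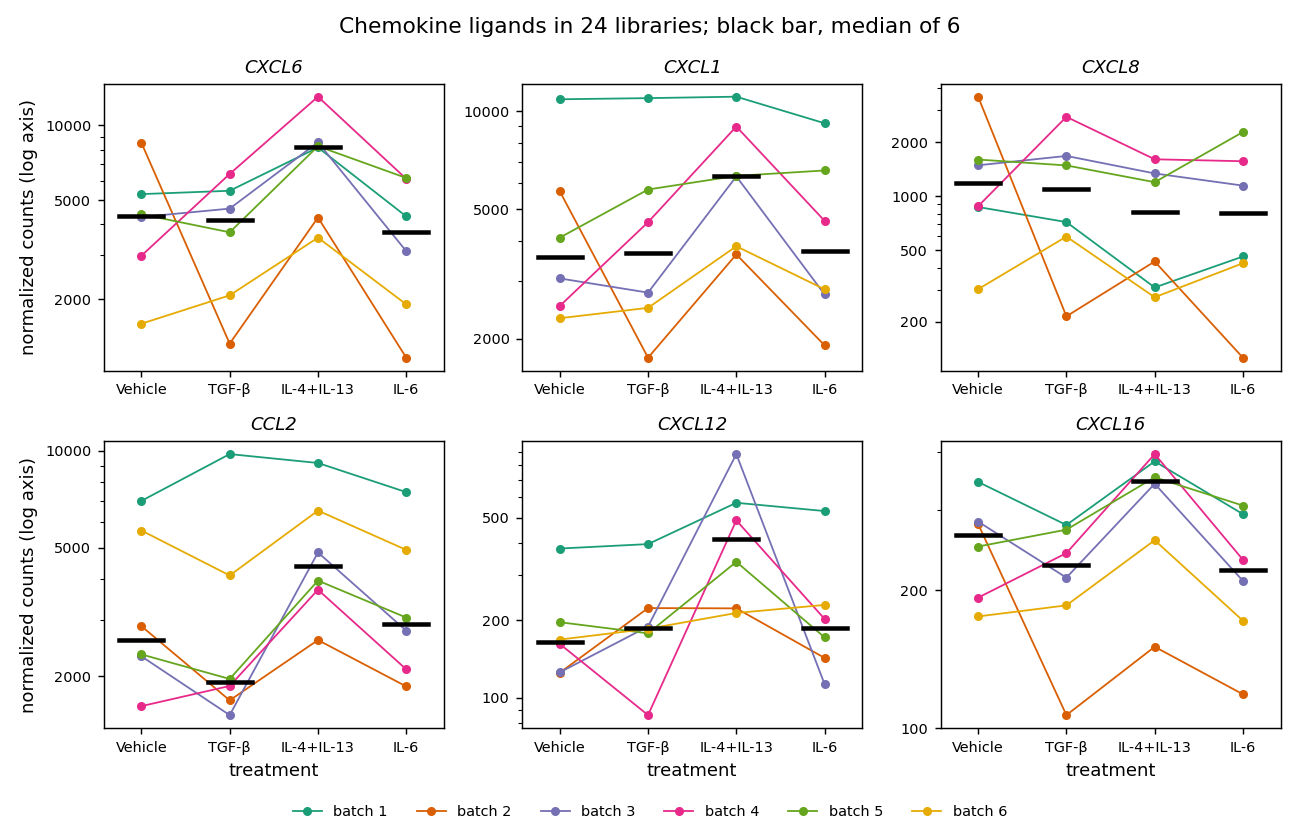
Normalized counts (log axis) of CXCL6, CXCL1, CXCL8, CCL2, CXCL12 and CXCL16 under each treatment, with 1 line for each of 6 batches and a black bar at the median of 6 libraries. The IL-4+IL-13 libraries have the highest median for each gene except CXCL8, while the vehicle library of batch 2 is high for CXCL6 (8516) and CXCL8 (3579).

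CXCL6 (chromosome 4, 73836678 to 73838760), a ligand of CXCR1 and CXCR2 that attracts neutrophils, had the largest fitted difference between TGF-β and IL-4+IL-13 among the ELR CXC genes. Vehicle libraries had a lowest, median and highest level of 1592, 4338 and 8516 normalized counts. Under TGF-β these values were 1324, 4172 and 6382, under IL-4+IL-13 3536, 8204 and 13061, and under IL-6 1162, 3713 and 6148. The groups overlapped, since batches differed in level, but within a batch IL-4+IL-13 was above TGF-β and above IL-6 in 6 of 6 batches and above vehicle in 5 of 6. In batch 2 the order was turned, with 8516 normalized counts in vehicle and 4261 under IL-4+IL-13. Against vehicle, IL-4+IL-13 gave a log2 fold change of 0.62 (SE 0.38, edgeR adjusted p = 0.664). The fold change of TGF-β against IL-4+IL-13 was -0.97 (SE 0.37, edgeR adjusted p = 0.243), and IL-4+IL-13 against IL-6 gave 1.03 (SE 0.37, edgeR adjusted p = 0.654). None of these passed the test with all 24 libraries.

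Leaving out the single vehicle library of batch 2 brought CXCL6 past the test in each of these comparisons. Its log2 fold change was then 1.24 for IL-4+IL-13 against vehicle (edgeR adjusted p = 0.00656), with 0.407% of all genes called and 0.765% changed. It was -1.04 for TGF-β against IL-4+IL-13 (edgeR adjusted p = 0.00364), although that library belongs to neither group and acts there only through the spread and the batch term (1.42% of all genes called, 4.93% changed). IL-4+IL-13 against IL-6 gave 1.11 (edgeR adjusted p = 0.00823), with 0.355% called and 0.752% changed. Without all 4 libraries of batch 2, the values were 1.13, -0.89 and 0.94, with edgeR adjusted p of 0.00839, 0.0121 and 0.0298. In a fit restricted to the TGF-β libraries and those of IL-4+IL-13, which uses no vehicle library, CXCL6 was lower under TGF-β by a log2 fold change of -1.02 (edgeR adjusted p = 0.0083). Restricted fits of the other pairs did not pass, at 0.82 for IL-4+IL-13 against vehicle (edgeR adjusted p = 0.831) and 1.10 for IL-4+IL-13 against IL-6 (edgeR adjusted p = 0.0771), the latter also free of vehicle libraries. Without the vehicle libraries of batches 2 and 4, the 3 values were 1.06, -1.02 and 1.10, with edgeR adjusted p of 0.013, 0.00109 and 0.00184. DESeq2 on all 24 libraries gave adjusted p of 0.578, 0.0845 and 0.151.

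CXCL1 (chromosome 4, 73869393 to 73871308), another CXCR2 ligand, had the most counts of the ELR CXC genes. Its lowest, median and highest levels were 2309, 3573 and 10883 normalized counts in vehicle and 1746, 3663 and 10971 under TGF-β. They were 3628, 6315 and 11084 under IL-4+IL-13 and 1905, 3717 and 9183 under IL-6. The groups overlapped, and batch 1 was the highest batch in every treatment, at 9183 to 11084. IL-4+IL-13 was above TGF-β in 6 of 6 batches, with a log2 fold change of TGF-β against IL-4+IL-13 of -0.68 (SE 0.26, edgeR adjusted p = 0.247). Against vehicle, IL-4+IL-13 gave 0.54 (SE 0.27, edgeR adjusted p = 0.569), higher in 5 of 6 batches. Without the vehicle library of batch 2 these values were -0.71 (edgeR adjusted p = 0.0246) and 0.90 (edgeR adjusted p = 0.0311), both past the test. Without all 4 libraries of batch 2 neither passed (-0.63, edgeR adjusted p = 0.0892, and 0.86, edgeR adjusted p = 0.0662). Without the vehicle libraries of batches 2 and 4 only the first did (-0.69, edgeR adjusted p = 0.0101, and 0.75, edgeR adjusted p = 0.0675). Over 18 settings, 2 and 1 passed.

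CXCL8 (interleukin-8, chromosome 4, 73740569 to 73743716), the best known neutrophil attractant of humans, did not follow CXCL6 and CXCL1 in its direction under IL-4+IL-13. Vehicle libraries had 304, 1182 and 3579 normalized counts at the lowest, median and highest, and the IL-4+IL-13 libraries 274, 815 and 1605. TGF-β gave 215, 1101 and 2764, and IL-6 gave 126, 804 and 2276. IL-4+IL-13 lay below vehicle in 5 of 6 batches, with a log2 fold change of -1.07 that did not pass the test (SE 0.59, edgeR adjusted p = 0.629). The difference rested on the vehicle library of batch 2, the highest of all 24, and without it the log2 fold change was -0.08 (edgeR adjusted p = 0.993). Without the vehicle libraries of batches 2 and 4 it was -0.29 (edgeR adjusted p = 0.921). In that batch CXCL8 went from 3579 normalized counts in vehicle to 215 under TGF-β, 433 under IL-4+IL-13 and 126 under IL-6.

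The other 3 ELR CXC genes were lower and did not pass the test in any comparison. CXCL2 was between 48.7 and 639 normalized counts over the 24 libraries, CXCL3 between 12.6 and 89.7, and CXCL5 between 0 and 119. CXCL2, like CXCL1 a ligand of CXCR2, had medians of 98.4 in vehicle, 97.2 under TGF-β, 159 under IL-4+IL-13 and 150.2 under IL-6. CXCL3 had medians of 30.8, 32.9, 44.3 and 35.6 normalized counts in the same order, and CXCL5 27.2, 20.2, 31.2 and 27.7. CXCL1, CXCL2 and CXCL3 have near-identical copies of sequence in the genome, visible also in the promoters printed above, so reads may have been split among them and their values are uncertain. The promoters printed for CXCL6 and CXCL5 are also alike over long runs, and whether reads were split between these genes was not tested. As a family, the 6 ELR CXC genes had a median log2 fold change of 0.40 for IL-4+IL-13 against vehicle and of -0.40 for TGF-β against IL-4+IL-13, beside -0.01 and -0.00 for all genes. Of the 6, 4 lay higher under IL-4+IL-13 than in vehicle and 2 lower.

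CCL2 (monocyte chemoattractant protein 1, chromosome 17, 34255285 to 34257203) was the 1 member whose difference between treatments passed the test with all libraries. Its lowest, median and highest levels were 1618, 2602 and 6992 normalized counts in vehicle. They were 1518, 1916 and 9764 under TGF-β, 2592, 4401 and 9164 with IL-4+IL-13, and 1862, 2907 and 7443 under IL-6. CCL2 fell under TGF-β relative to IL-4+IL-13 by a log2 fold change of -0.81 (SE 0.17, edgeR adjusted p = 0.0118), which is short of the limit of a call. It was lower in 5 of 6 batches. Batch 1, which had the highest level, went slightly the other way, with 9164 normalized counts under IL-4+IL-13 and 9764 under TGF-β. Since these are whole cultures, fewer cells of a type and less RNA per cell cannot be told apart, here and in all results below.

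The other comparisons of CCL2 did not pass with all libraries. IL-4+IL-13 against vehicle gave a log2 fold change of 0.58 (SE 0.17, edgeR adjusted p = 0.209), higher in 5 of 6 batches. TGF-β against vehicle gave -0.23 (SE 0.17, edgeR adjusted p = 0.893). IL-4+IL-13 against IL-6 gave 0.55 (SE 0.17, edgeR adjusted p = 0.4), higher in 6 of 6 batches, and passed only in the fit restricted to those libraries (0.52, edgeR adjusted p = 0.00859). The direct difference between TGF-β and IL-4+IL-13 lost its significance without batch 3 (-0.63, edgeR adjusted p = 0.108), without batch 4 (-0.76, edgeR adjusted p = 0.0611) and without batch 5 (-0.76, edgeR adjusted p = 0.0841). It passed without batch 1 (-1.01, edgeR adjusted p = 0.00365), batch 2 (-0.84, edgeR adjusted p = 0.0143) or batch 6 (-0.84, edgeR adjusted p = 0.0426). It also missed the test in a fit restricted to the libraries of these 2 treatments (-0.81, edgeR adjusted p = 0.095), in the 18 libraries without IL-6 (-0.82, edgeR adjusted p = 0.0522), without batches 2 and 4 (-0.79, edgeR adjusted p = 0.0868) and without the batch term (-0.57, edgeR adjusted p = 1.0). DESeq2 gave -0.80 with an adjusted p of 0.000381.

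CCL7 (chromosome 17, 34270221 to 34272242), a further monocyte attractant encoded beside CCL2, was measured at low counts. It reached 0, 6.18 and 28.5 normalized counts at the lowest, median and highest in vehicle, 0, 0 and 33.4 under TGF-β, 5.96, 16.1 and 36.7 with IL-4+IL-13 and 0, 6.16 and 22.3 under IL-6. IL-4+IL-13 libraries were the only group without a library at 0. TGF-β lay below IL-4+IL-13 in 6 of 6 batches (log2 fold change -2.18, SE 0.84, edgeR adjusted p = 0.244), which did not pass the test.

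CXCL12 (stromal cell-derived factor 1, chromosome 10, 44370165 to 44385097), the ligand of CXCR4 and ACKR3, had the lowest p of all members in the comparison of IL-4+IL-13 with vehicle. Vehicle libraries had 125, 165 and 379 normalized counts at the lowest, median and highest, and the IL-4+IL-13 libraries 213, 412 and 881. TGF-β gave 85.8, 187 and 395, and IL-6 gave 113, 187 and 530. IL-4+IL-13 was above vehicle in 6 of 6 batches, as was the case in that direction for 2.3% of all genes, and 1 of 45 members. The log2 fold change was 1.27 (SE 0.32, unadjusted p = 9.86e-04, edgeR adjusted p = 0.102), which did not pass the test. DESeq2 gave 1.27 with an adjusted p of 0.0053 and called it, and likewise TGF-β against IL-4+IL-13 (-1.13, adjusted p = 0.00916; in edgeR -1.14, SE 0.32, adjusted p = 0.0704). Of the edgeR settings tried, the latter passed only without batch 2 (-1.38, edgeR adjusted p = 0.0391). Batch 3 carried the widest gap, with 881 normalized counts under IL-4+IL-13 against 126 in vehicle, and without batch 3 the log2 fold change against vehicle was 0.88 (edgeR adjusted p = 0.309).

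CXCL16 (chromosome 17, 4733533 to 4739928), a membrane-anchored ligand of CXCR6, moved little in size. Its direction was even between batches for IL-4+IL-13 against TGF-β and against IL-6, but not against vehicle. Its lowest, median and highest levels were 175, 264 and 345 normalized counts in vehicle, 107, 227 and 278 under TGF-β, 151, 347 and 396 with IL-4+IL-13 and 119, 221 and 306 under IL-6. Within batches, IL-4+IL-13 was above TGF-β and above IL-6 in 6 of 6. The log2 fold changes of -0.54 for TGF-β against IL-4+IL-13 (SE 0.18, edgeR adjusted p = 0.122) and of 0.50 for IL-4+IL-13 against IL-6 (SE 0.18, edgeR adjusted p = 0.561) did not pass the test. Without the vehicle library of batch 2 both passed, at -0.55 (edgeR adjusted p = 0.00336) and 0.50 (edgeR adjusted p = 0.0242). Without batches 2 and 4 the second did not (0.46, edgeR adjusted p = 0.177). IL-4+IL-13 against vehicle gave log2 fold changes of 0.0957 to 0.493 over 18 settings, of which 0 passed the test. The annotated span of CXCL16 overlaps those of MED11 and ZMYND15, and the strandedness of the counting is not given, so reads of the overlap cannot be assigned to one of them.

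No comparison of the other well measured ligands passed the test. CXCL14 (chromosome 5, 135570679 to 135578991), a chemokine of epithelia and stroma, had medians of 5702 normalized counts in vehicle, 3589 under TGF-β, 5738 under IL-4+IL-13 and 5577 under IL-6, within a range of 1132 to 9766. TGF-β lay below vehicle in 4 of 6 batches (log2 fold change -0.61, SE 0.25, edgeR adjusted p = 0.571). CX3CL1 (fractalkine, chromosome 16, 57372490 to 57385044), which neurons are known to make, was between 605 and 1779 normalized counts in all libraries. IL-4+IL-13 against vehicle gave a log2 fold change of -0.35 (SE 0.14, edgeR adjusted p = 0.451), which did not pass the test. XCL1, a lymphocyte chemokine, lay between 51.8 and 115 normalized counts, with medians of 65.6 in vehicle, 84.7 under TGF-β, 74.9 with IL-4+IL-13 and 81.4 under IL-6, and shares near-identical sequence with XCL2. Over the 7 ligands of this group the median log2 fold change was -0.28 for TGF-β against vehicle, -0.25 for the IL-4+IL-13 group and -0.27 for IL-6.

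**Figure D2:**
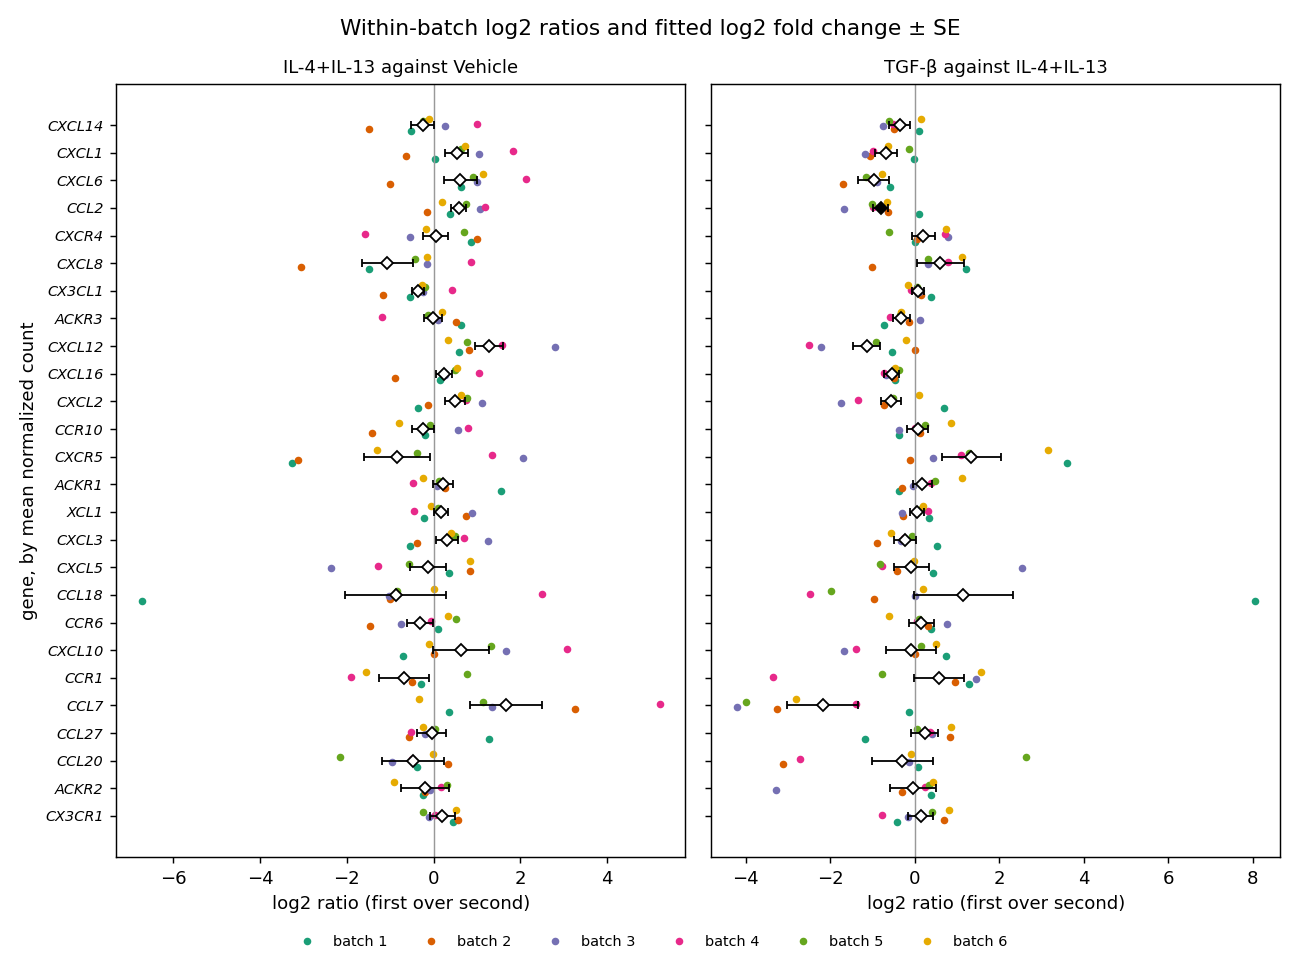
Log2 ratio within each batch (coloured points, 6 per gene) and fitted log2 fold change with its SE (diamonds, filled where the edgeR adjusted p was under 0.05) for the 26 members with a mean of at least 10 normalized counts, for IL-4+IL-13 against vehicle and TGF-β against IL-4+IL-13. Only the diamond of CCL2 in the second panel is filled, and the batch 2 points of CXCL6, CXCL1 and CXCL8 in the first panel lie left of 0.

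Counted by batches, no member separated its groups of 6 libraries without overlap in any of the 6 comparisons (0.0613% of all genes for TGF-β, 0.286% for the IL-4+IL-13 group and 0.0374% for IL-6, each against vehicle, 0.327% for TGF-β against IL-4+IL-13, 0.0817% for TGF-β against IL-6 and 0.177% for IL-4+IL-13 against IL-6). Lower in 6 of 6 batches under TGF-β than in the IL-4+IL-13 libraries were 4 of 45 members (CXCL1, CXCL6, CXCL16 and CCL7), against 5.32% of all genes, and 0 were higher (4.48%). Higher in 6 of 6 batches under IL-4+IL-13 than under IL-6 were 3 of 45 (CXCL6, CCL2 and CXCL16), against 2.47%, and 0 were lower (2.04%). Lower in 6 of 6 under IL-4+IL-13 than in vehicle was 1 of 45, CXCL13, against 1.78%. No member was higher or lower in 6 of 6 batches under TGF-β (1.66% and 2.51% of all genes) or IL-6 (1.18% and 1.05%) against vehicle. CXCL13, the attractant of B cells, had only 71 counts in all vehicle libraries together and 27 in the IL-4+IL-13 libraries (log2 fold change -1.56, SE 0.63, edgeR adjusted p = 0.455).

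The CXCR3 ligands, which interferons are known to induce, were near the limit of detection. CXCL10 had medians of 2.06 normalized counts in vehicle, 7.75 under TGF-β, 9.63 under IL-4+IL-13 and 10.0 under IL-6, with a highest value of 59.1. CXCL11 was at 0 in all 6 vehicle libraries, with 14 counts in the TGF-β libraries, 11 in the IL-4+IL-13 libraries and 7 in the IL-6 libraries. Set against a floor of 3 counts over the vehicle group, CXCL11 was at least 5.12-fold, 3.77-fold and 2.44-fold higher in normalized counts, but did not pass the test (edgeR adjusted p = 0.322, 0.358 and 0.85). Both genes overlap ART3.

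CCL19, a ligand of CCR7 that guides lymphocytes and dendritic cells, was singled out after its values were seen. All of its 95 counts lay in 5 TGF-β libraries, and it was at 0 in the other 19 libraries. The TGF-β libraries of batches 1 to 6 held 0, 4.19, 44.9, 41.8, 2.05 and 3.90 normalized counts, so that batches 3 and 4 held most of the signal. Against a floor of 3 counts over the vehicle group, CCL19 was at least 33.4-fold higher under TGF-β. The difference did not pass the test against vehicle (edgeR adjusted p = 0.281), IL-4+IL-13 (edgeR adjusted p = 0.113) or IL-6 (edgeR adjusted p = 0.32).

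CCL18, a chemokine known from macrophages exposed to IL-4, has 3 entries in the table, and the first, with 739 counts, is the member. It was between 0 and 104 normalized counts in vehicle, 0 and 263 under TGF-β, 0 and 78.4 with IL-4+IL-13 and 0 and 81.9 under IL-6, and its signal lay in 2 batches. The 4 libraries of batch 6 held 78.1 to 90.7, while batch 1 held 104 in vehicle, 263 under TGF-β, 19.1 under IL-6 and 0 with IL-4+IL-13, and no other library exceeded 7.75. No comparison of it passed the test. Another entry of the symbol, not a member and named here after its values were seen, held 7049 counts. Its medians were 57.5 normalized counts in vehicle, 23.7 under TGF-β, 145 under IL-4+IL-13 and 84.8 under IL-6. That entry fell under TGF-β relative to IL-4+IL-13 (log2 fold change -1.99, SE 0.47, edgeR adjusted p = 0.0235), and against vehicle it was higher under IL-4+IL-13 in 6 of 6 batches (1.62, SE 0.45, edgeR adjusted p = 0.169). The third entry, with 926 counts, went the other way in both comparisons and did not pass the test. It gave a log2 fold change of 0.60 for TGF-β against IL-4+IL-13 (SE 0.80, edgeR adjusted p = 0.888). For IL-4+IL-13 against vehicle it gave -0.35 (SE 0.80, edgeR adjusted p = 0.937), lower in 5 of 6 batches. The table does not say where the entries lie. The summed leukocyte markers had medians of 817 normalized counts in vehicle, 707 under TGF-β, 831 under IL-4+IL-13 and 941 under IL-6, and their part in these values was not tested.

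The remaining CC ligands were low. CCL27 ranged from 4.08 to 17.8 normalized counts, with medians of 12.4 in vehicle, 12.7 under TGF-β, 9.69 with IL-4+IL-13 and 9.16 under IL-6. CCL20, the ligand of CCR6, ranged from 0 to 35.7, with medians of 10.2, 9.65, 6.6 and 8.90 in that order. CCL25 had 236 counts, CCL15 and CCL3 had 38 each, CCL14 had 21, CCL1 had 20, CCL21 had 18, CCL17 had 16 and CCL28 had 14, in all libraries together. CXCL17, a ligand of mucosal tissues, had 62. None of them passed the test in any comparison. CCL3, CCL14 and CCL15 have further entries under the same symbol, so their reads may be split.

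Among receptors, CXCR4 (chromosome 2, 136114349 to 136118149) was the highest, with medians of 1388 normalized counts in vehicle, 1479 under TGF-β, 1069 under IL-4+IL-13 and 1518 under IL-6. Its range was 522 to 3957, and no comparison passed the test. CCR10, a receptor of CCL27 and CCL28, was between 37.7 and 232 normalized counts, with medians of 116 in vehicle, 125 under TGF-β, 98.2 with IL-4+IL-13 and 97.2 under IL-6. CXCR5, the receptor of CXCL13, was between 2.82 and 659, with batch medians of 301 in batch 3 and 205 in batch 4 but 11.9 to 25.3 in the others. In 6 of 6 batches TGF-β lay above IL-6, as for 1 of 45 members and 3.62% of all genes (log2 fold change 1.25, SE 0.71, edgeR adjusted p = 0.764). Its span overlaps that of BCL9L.

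Low receptors were CCR6 (6.12 to 51.9 normalized counts), CCR1 (0 to 37.6) and CX3CR1, the receptor of fractalkine (5.17 to 19.8). With treatments in the order used for CXCR4, their medians were 28.9, 25.8, 27.5 and 39.4 for CCR6. They were 11.6, 8.09, 6.53 and 7.70 for CCR1, and 7.72, 11.3, 9.24 and 8.48 for CX3CR1. CCR7 had 208 counts in all libraries, CXCR6 34, CCR9 28, CCR4 18, and CXCR2 10. Over the 12 conventional receptors the median log2 fold change was 0.16 against vehicle for TGF-β, -0.36 for the IL-4+IL-13 group and -0.13 for IL-6, and none passed the test. CCR1, CCR6, CCR7 and CXCR6 are receptors of leukocytes in textbook accounts.

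The atypical receptors were led by ACKR3 (chromosome 2, 236537122 to 236582354), the scavenger of CXCL12. ACKR3 had medians of 327 normalized counts in vehicle, 286 under TGF-β, 358 under IL-4+IL-13 and 373 under IL-6, and was lower under TGF-β than under IL-6 in 6 of 6 batches. The 1 of 45 members in that direction compares with 3.54% of all genes, and the log2 fold change of -0.49 did not pass the test (SE 0.20, edgeR adjusted p = 0.563). ACKR1 ranged from 25.5 to 171 normalized counts, with medians of 107 in vehicle, 113 under TGF-β, 122 with IL-4+IL-13 and 84.2 under IL-6. ACKR2 ranged from 0 to 22.3, with medians of 8.71, 9.99, 8.31 and 10.99, and ACKR4 from 0 to 9.18. None of the 4 passed the test.

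Differences between batches were wider than those between treatments. Over the 6 batches, 23 of 45 members changed, beside 56.8% of all genes, and of the 26 members with a mean of at least 10 normalized counts 22 did. Without batch 1, 12 members changed, beside 43.5%. Batch took a median of 59.7% of the sum of squares of log2 levels over these 26 members, and treatment 6.4%. Of the degrees of freedom, batch holds 21.7% and treatment 13%. The batch share was above the treatment share in all 26. CXCL12 came closest to an even split (33.5% and 33.2%), followed by CCL7 (41.8% and 25.6%) and CXCL6 (41.5% and 24.3%), while CXCL10 was set by batch (86.5% and 2.76%).

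**Figure D3:**
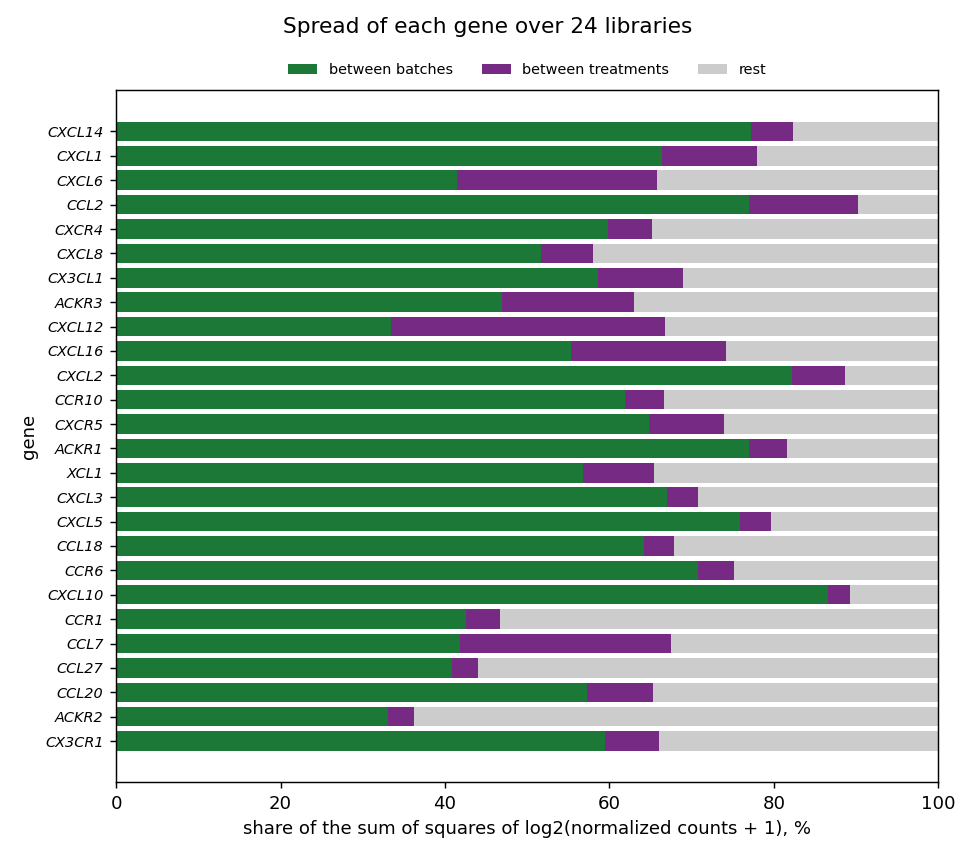
Share (%) of the sum of squares of log2(normalized counts + 1) over 24 libraries that lay between 6 batches, between 4 treatments and in the rest, for each of 26 members ordered by mean level. The batch share exceeds the treatment share in every bar, with CXCL12 nearest to an even split.

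Batch 1 stood out for several ligands, though not for CXCL8, whose median was 590 normalized counts there and 1412 to 1585 in batches 3 to 5, nor for CXCL6 (5377, against 6239 in batch 4). CXCL2 had a median of 538 normalized counts in batch 1 and of 86.6 to 165 in the other batches (6 batches, edgeR adjusted p = 3.63e-07). CCL2 had medians of 8303 in batch 1, 5296 in batch 6 and 1986 to 2692 in the others (edgeR adjusted p = 5.68e-07). CXCL1 reached 10927 in batch 1 and 2659 to 6036 elsewhere, CXCL5 97.9 and 4.45 to 32.9, and CXCL10 50.8 and 0 to 30.02. CXCL3 had a median of 86.5 in batch 1 and reached at most 48.5 in any library of the others. CXCL14 was low in batch 2 (1368) and highest in batch 6 (8924), and CXCR4 was highest in batch 2 (3165). Neuronal markers were lowest in batch 1, where their summed level had a median of 64692 normalized counts (highest 87550). In the others the medians were 131941 to 310522 (lowest library 107787), without overlap. Summed mesenchymal markers had a median of 355101 in batch 1 and of 130279 to 252998 in the others, and summed leukocyte markers 1731 in batch 1, 1424 in batch 6 and 520 to 900.2 in the rest. Summed epithelial markers had a median of 29182 in batch 1 (lowest 19083) and of 8426 to 13199 in the others (highest 14760), without overlap. The NF-kB and inducer list had a median of 35659 in batch 1 (lowest 26539) and of 11796 to 18454 in the others (highest 20648), also without overlap. The part of these markers in the chemokine levels was not tested.

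**Figure D4:**
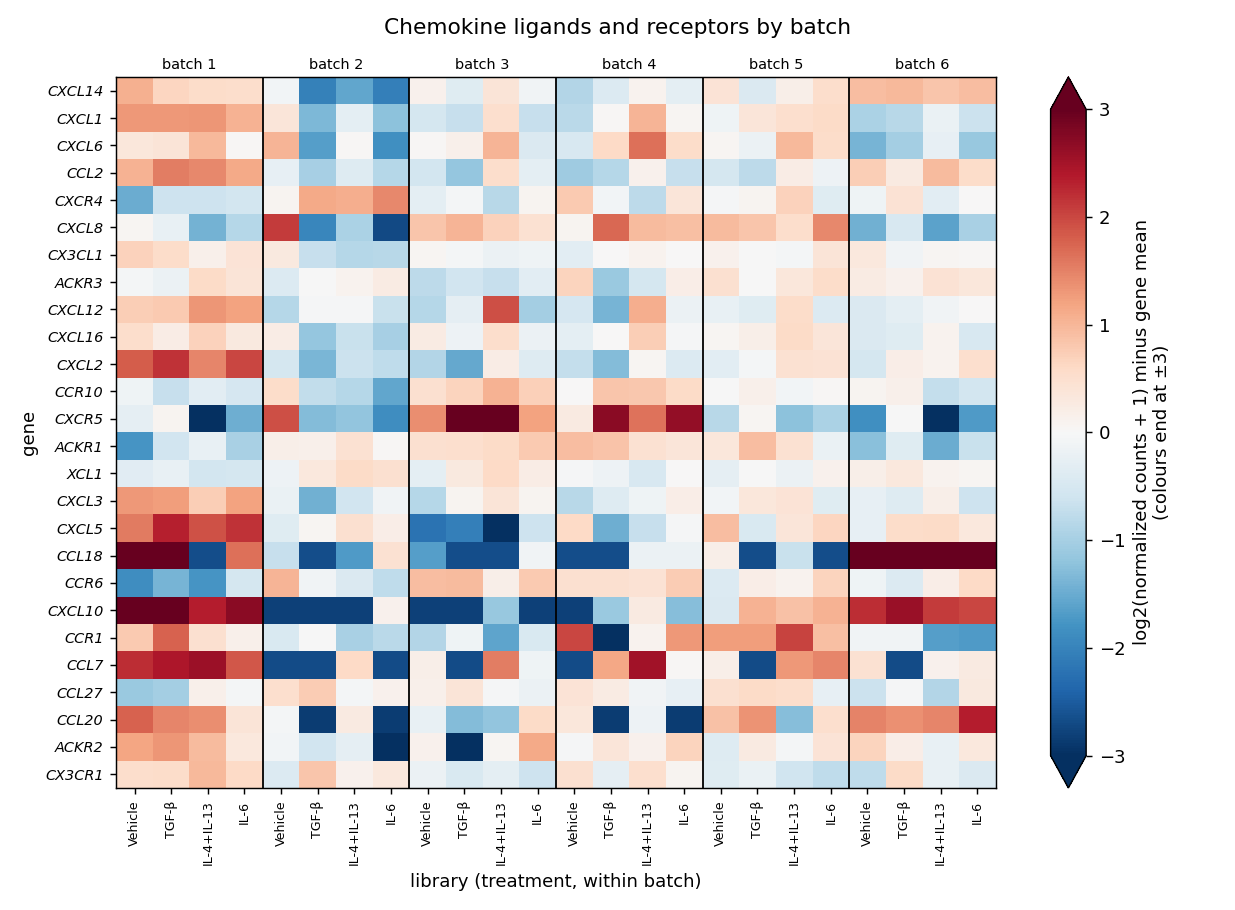
Log2(normalized counts + 1) minus the mean of the gene, for 26 members (rows, ordered by mean level) in 24 libraries grouped by batch (columns), with colours ending at 3 on either side. Batch 1 is high for CXCL1, CXCL2, CXCL3, CXCL5, CCL2, CXCL10 and CCL7, and the vehicle library of batch 2 differs from the 3 other libraries of its batch for CXCL6, CXCL8 and CXCR5.

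Once batch and treatment means were taken out, CXCL6 moved with CXCL8 over the 24 libraries (Pearson's r = 0.97), CXCL14 (0.94), CXCL1 (0.90), CX3CL1 (0.89) and CXCL16 (0.88), and against CXCR4 (-0.65). Without the vehicle libraries of batches 2 and 4 these values were 0.89 for CXCL8, 0.75 for CXCL14, 0.60 for CXCL1, 0.49 for CX3CL1, 0.33 for CXCL16 and -0.36 for CXCR4. CXCL6 also moved with IL6, the gene of interleukin-6, at 0.82 and 0.72, and with the collagen gene COL1A1 at 0.86 and 0.71. The libraries share their batches, so these correlations are a description.

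Genes around the chemokine pathway changed in few cases. Beside the lists below, 0.347% of all genes changed for TGF-β against vehicle, 0.633% for the IL-4+IL-13 group against vehicle and 2.98% between TGF-β and IL-4+IL-13. Of 9 tested chemokine genes outside the symbol series, 1 changed: RARRES2, the gene of the attractant chemerin, fell under TGF-β against vehicle (log2 fold change -1.36, SE 0.24, edgeR adjusted p = 0.0163) and against IL-4+IL-13 (-1.09, SE 0.24, edgeR adjusted p = 0.0139). Of 24 tested genes of chemokine receptor signalling, 1 changed: ARRB2, a β-arrestin that ends receptor signalling, rose under IL-4+IL-13 against vehicle (0.35, SE 0.07, edgeR adjusted p = 0.0158). The medians of these lists for IL-4+IL-13 against vehicle were -0.31 and -0.02, beside -0.01 for all genes. Of 19 tested genes of NF-kB signalling and inflammatory inducers, LIF fell under IL-4+IL-13 against vehicle (-1.29, SE 0.24, edgeR adjusted p = 0.0118) and none rose, with a list median of -0.04. Between TGF-β and IL-4+IL-13, 3 of the 19 changed. The alarmin gene IL1A fell under TGF-β relative to IL-4+IL-13 (-0.92, SE 0.17, edgeR adjusted p = 0.00406), while LIF (2.00, SE 0.24, edgeR adjusted p = 9.71e-05) and the prostaglandin synthase gene PTGS2 (2.73, SE 0.55, edgeR adjusted p = 0.00712) rose.

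Some markers of other cell types changed, and their counts stand against the same shares of all genes. COL1A1 was higher under TGF-β than in the IL-4+IL-13 libraries (1.31, SE 0.26, edgeR adjusted p = 0.00675), as 1 of 10 mesenchymal markers. The endothelial receptor gene KDR was lower in that comparison (-1.30, SE 0.27, edgeR adjusted p = 0.0116), as 1 of 4 endothelial markers. CCL2 was lower in the same comparison. Summed endothelial markers had medians of 3262 normalized counts under IL-4+IL-13 (998 to 5713) and 1333 under TGF-β (578 to 2706). KDR held most of that sum, with 49558 counts in all libraries, against 1349 for TEK, 361 for PECAM1 and 359 for CDH5. The sum thus mainly repeats KDR. CDH1, an epithelial gene, fell under IL-4+IL-13 against vehicle (-1.89, SE 0.34, edgeR adjusted p = 0.00957), as 1 of 4 epithelial markers, and was higher under TGF-β than in the IL-4+IL-13 libraries (1.27, SE 0.33, edgeR adjusted p = 0.0457). None of 8 neuronal or 4 tested leukocyte markers changed between treatments. The part of these markers in the chemokine values was not tested.

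**Figure D5:**
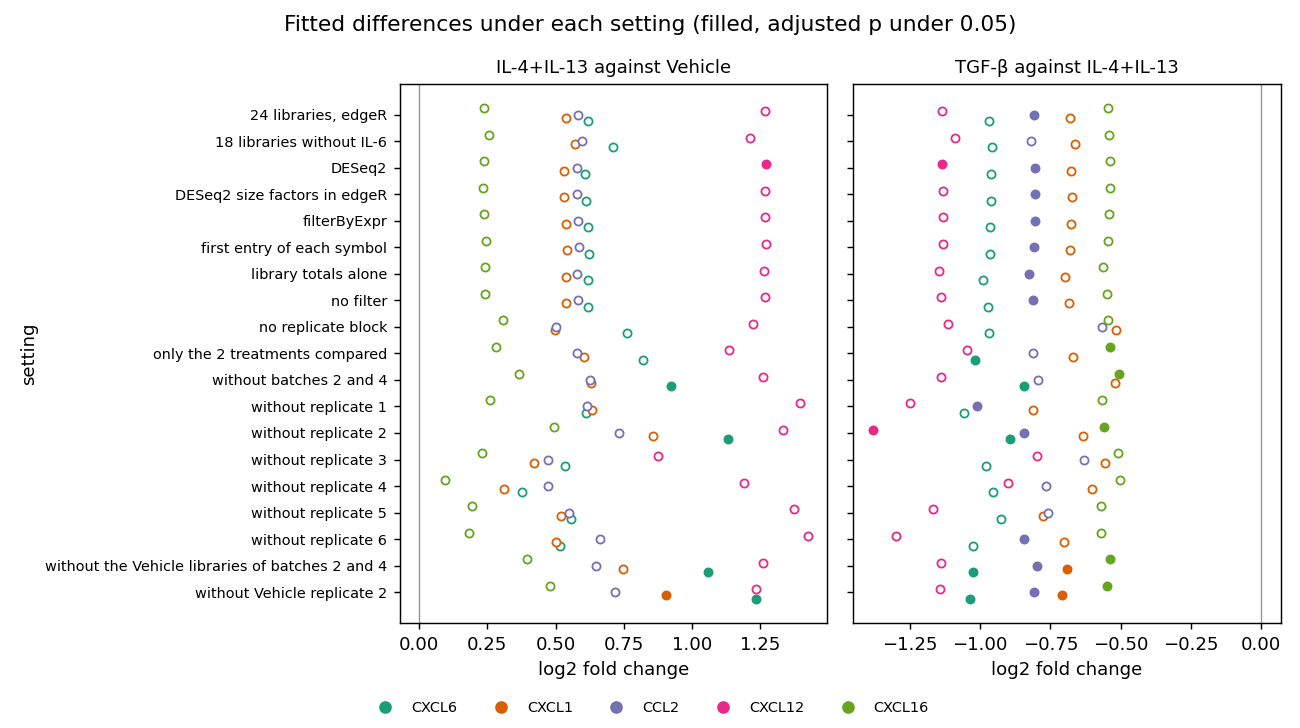
Fitted log2 fold changes of CXCL6, CXCL1, CCL2, CXCL12 and CXCL16 under each processing setting (rows), for IL-4+IL-13 against vehicle and TGF-β against IL-4+IL-13, with filled points where the adjusted p was under 0.05. All points of the first panel lie above 0 and all of the second below 0, while the filled points depend on the setting, as with CXCL6 where the vehicle library of batch 2 is left out (1.24 and -1.04).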

How the data were processed

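RNA was measured in 24 polyA-selected libraries of treated sensory neuron cultures, 1 per batch and treatment. The authors trimmed reads with Trimmomatic 0.30, mapped them to GRCh38.p14 and deposited raw counts per gene. The aligner, the counter and the strandedness are not given in the sources used here, so overlapping genes and near-identical copies are uncertain. Entries named NewGene (13161, holding 1.97% of counts) were kept in the fits. Library totals of 33342682 to 39817784 counts set the precision, and counting error alone is not the replicate error used in the tests.

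Groups and batches were taken from the labels. Entries with a total of at least 10 counts (29377) were fitted with edgeR 4.0.16 (R 4.3.3) by its quasi-likelihood test, with TMM normalization, batch and treatment as terms and Benjamini-Hochberg adjustment over all entries. Dividing a log2 fold change by the root of its F statistic gave the SE. Batch pairs the libraries because the labels name the differentiation batch. As a check, after treatment means were taken out, libraries had a mean correlation of 0.319 to 0.847 with their own batch, except the vehicle libraries of batches 2 (0.00808) and 4 (0.163). Levels are counts over DESeq2 1.42.0 size factors, and log2 levels use a pseudocount of 1.

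The rule named CXCL6, CCL2, CXCL12, members that changed in a comparison and members with a mean of at least 10 normalized counts for full values. Of these, members with no difference past the test are in part given only by group medians and range. Others were given by total or range. Single values of some genes are not reported here. The members, the lists and this rule were chosen with earlier results of these data known. Alternatives were DESeq2, its size factors in edgeR, library totals alone, no filter, edgeR's filterByExpr, first entries only, fewer treatments in the fit, no batch term, and leaving out each batch or single libraries. On counts simulated for IL-4+IL-13 against vehicle over 29377 genes, the fit recovered 88% of changes of 1.5 and 100% of changes of 3 on the log2 scale. The changed genes were drawn only from those with an expected mean of at least 10 counts. Each batch had the same means in all treatments, so the unlike vehicle libraries of batches 2 and 4 were not mimicked. Smaller changes and genes with fewer counts were not tried, so these shares do not give the power for them. Promoter sequences are from RefSeq. Python 3.11.15 and matplotlib 3.10.9 drew the figures.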

Additional observations from a re-analysis of the deposited data

Results flagged for a closer look

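In each of 104 groups of 6 libraries (26 members, 4 treatments), the gap of the highest or lowest library to its nearest neighbour was set against the range of the group. A single library stood apart in 21 groups, where chance flags about 1 in 20 independent groups of normally distributed values. The levels were not on a log scale, so that rate may not hold here. The groups are not independent, since the 4 treatments of a gene share the same 6 batches and levels were not adjusted for batch. All values are normalized counts.

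Most were in batch 1, so that a high batch 1 is counted again in each treatment. CXCL2 was 506 in the vehicle library of batch 1 (others 76.2 to 113), 639 under TGF-β (others 48.7 to 164), 392 under IL-4+IL-13 (others 90.1 to 195) and 570.2 under IL-6 (others 83.1 to 201). CXCL3 was 89.7 in vehicle and 84.9 under IL-6, and CXCL5 was 119 under TGF-β and 107 under IL-6. CXCL12 was 379 in vehicle and 530 under IL-6 (an IL-6 range of 113 to 229 elsewhere). CCL2 was 9764 under TGF-β (others 1518 to 4109), CCL7 28.5 in vehicle, CCL18 263 under TGF-β and ACKR2 16.9 under IL-4+IL-13.

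In batch 6, CCL18 was 78.4 under IL-4+IL-13 and 81.9 under IL-6, and CCL20 was 35.7 under IL-6. CXCR5 was 486 in the IL-4+IL-13 library of batch 3 (others 2.82 to 135) and 275 in the IL-6 library of batch 4. CXCR4 was 3957 in the IL-6 library of batch 2 (others 999 to 1894), and CCR1 was 37.6 in the IL-4+IL-13 library of batch 5.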

How the results depend on the processing

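Of the fold changes followed across settings, 392 values kept their direction and side of the threshold, 28 came to pass it, 7 no longer passed it and 5 turned direction. The turned ones were small: CXCL2 for IL-4+IL-13 against IL-6 gave -0.14 without the batch block, -0.033 without batches 2 and 4 and -0.044 to 0.19 on leaving out libraries, and CXCL3 gave -0.037 to 0.20 on leaving out libraries, with -0.029 without batch 5. Leaving out batches 2 and 4, or their vehicle libraries, was chosen after seeing the data.

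Numbers of genes called moved more. TGF-β against vehicle (42) gave 6 in 18 libraries without IL-6, 234 with DESeq2, 0 without the paired block, 0 in a fit of those treatments alone, 7 without batches 2 and 4, 26 without their vehicle libraries, and 1 to 42 when leaving out a batch or the vehicle library of batch 2. In the same order of settings, IL-4+IL-13 against vehicle (109) gave 72, 292, 13 and 25, with a range of 60 to 122. IL-6 against vehicle (0) gave 120 with DESeq2 and 0 to 0 on leaving out libraries. TGF-β against IL-4+IL-13 (347) gave 627 with DESeq2, 49 without the block and 196 to 444. TGF-β against IL-6 (9) gave 248 with DESeq2, 17 with filterByExpr, 22 with library totals alone, 0 without the block, 29 in those treatments alone, 46 without the vehicle libraries of batches 2 and 4 and 0 to 37. IL-4+IL-13 against IL-6 (82) gave 255 with DESeq2, 13 without the block and 52 to 109.

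Members called, 0 in each comparison with all libraries, came to 1 with DESeq2 and 1 without the vehicle libraries of batches 2 and 4 for IL-4+IL-13 against vehicle (0 to 1 on leaving out libraries). For TGF-β against IL-4+IL-13 they came to 1 with DESeq2, 1 in those treatments alone and 2 without these vehicle libraries, one of them CCL19, whose counts all lay in TGF-β libraries (0 to 1), and for IL-4+IL-13 against IL-6 to 1 without them (0 to 1). Members that differed among the 4 treatments (0) came to 2 with DESeq2, 1 with filterByExpr, 1 with library totals alone, 1 without batches 2 and 4, 4 without their vehicle libraries and 0 to 4 on leaving out libraries. Members that differed among batches (23) ranged from 12 to 27. Apart from fewer libraries, the cause of these shifts was not tested. CCL19 (95 counts in all) and CXCL11 (32) rest on few counts.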
